A study of Mus musculus with 18 samples.

Results

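The 10 genes examined here mark the sinusoidal endothelial cells of the liver. They were followed through the day in whole mouse liver, and all 10 were found among the 14451 genes of the deposited expression table by their symbols. They are Stab1, Stab2, Lyve1, Clec4g, Kdr, Pecam1, Mrc1, Fcgr2b, Oit3 and Bmp2. The livers came from WT male mice of 8 to 9 weeks kept under 12 h of light and 12 h of dark, with no other allele and no treatment in the labels. Whole livers were taken at zeitgeber time (ZT, hours after lights on) 1, 5, 9, 13, 17 and 21, from 3 mice at each of the 6 time points and 18 mice in all, so each value is 1 liver of 1 mouse and ZT1, ZT5 and ZT9 fall in the light. Polyadenylated RNA was sequenced, and values are normalized read counts per 1000000 reads, linear and not corrected for gene length.

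Sinusoidal endothelial cells line the capillaries of the liver lobule. Their wall is perforated and lacks a continuous basement membrane, so plasma reaches the hepatocytes, and they are known for clearing waste macromolecules and small immune complexes from blood through a set of scavenger, lectin and Fc receptors. They also sense vascular endothelial growth factor (VEGF) and release bone morphogenetic proteins (BMPs), which set the production of the iron hormone hepcidin by hepatocytes. These cells are a minority of the liver, and in RNA from a whole organ fewer endothelial cells and less RNA of a gene per cell cannot be told apart.

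Libraries held an estimated 10268168 to 23242842 reads. Over 4 clock genes, 17 of the 18 livers were nearest to the other livers of their own time point, and ZT5 replicate 3 was nearer to ZT9 than to ZT5. All 10 markers were measured in every liver, from an estimated 56 reads (Bmp2 in ZT17 replicate 2) to 1233 reads (Mrc1 in ZT5 replicate 3). Divided by the length of their merged exons, the markers averaged from 15.2 ± 2.66 per kilobase (SD, n = 18) for Clec4g down to 2.15 ± 0.596 for Pecam1. Between these came Fcgr2b at 7.37 ± 1.34, Oit3 at 7.09 ± 1.97, Mrc1 at 5.79 ± 1.63, Stab2 at 4.37 ± 1.116, Kdr at 4.28 ± 1.201, Stab1 at 3.76 ± 0.747, Bmp2 at 3.37 ± 0.980 and Lyve1 at 2.92 ± 1.095. The livers of Clec4g, the lowest at 10.1, did not overlap with those of its neighbour Fcgr2b, the highest at 9.79, but did with those of Oit3, which reached 10.9, and every other neighbouring pair in this order overlapped between livers.

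Stab1 and Stab2 encode stabilin-1 and stabilin-2, large scavenger receptors, of which stabilin-2 clears hyaluronan. Stab1 (GRCm38 chromosome 14, 31139013 to 31168641, minus strand, 58 exon blocks) measured 37.7, 31.98 and 28.4 in the livers of ZT1, 55.9, 40.3 and 43.9 at ZT5, and 40.5, 42.4 and 40.0 at ZT9. In the dark it measured 49.5, 35.3 and 47.2 at ZT13, 38.9, 28.5 and 40.8 at ZT17, and 26.3, 34.7 and 33.2 at ZT21. The livers of ZT5 all lay above those of ZT21, with means of 46.7 ± 8.16 and 31.4 ± 4.49 (SD, n = 3). Stab2 (chromosome 10, 86841198 to 87008025, minus strand, 72 exon blocks) measured 43.2, 28.8 and 29.95 at ZT1, 53.9, 44.8 and 46.8 at ZT5, and 35.0, 53.2 and 43.6 at ZT9. It measured 48.5, 34.7 and 46.8 at ZT13, 30.4, 22.2 and 36.1 at ZT17, and 21.7, 35.2 and 34.5 at ZT21. Its livers at ZT5 were all higher than those at ZT17, at 48.5 ± 4.80 against 29.6 ± 7.01.

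Mrc1 encodes the mannose receptor, which takes up glycoproteins that end in mannose and collagen fragments, and which macrophages also carry. The gene (chromosome 2, 14229392 to 14332057, plus strand, 29 exon blocks) measured 45.4, 32.8 and 29.5 at ZT1, 55.2, 44.8 and 51.3 at ZT5, and 38.4, 44.4 and 44.1 at ZT9. Its values in the dark were 36.2, 29.9 and 43.9 at ZT13, 34.7, 16.9 and 39.8 at ZT17, and 18.96, 27.5 and 30.1 at ZT21. The mean at ZT5, 50.4 ± 5.26, was 1.98 times that at ZT21, 25.5 ± 5.83, with no overlap between those livers. Lyve1, a hyaluronan receptor better known from lymphatic vessels (chromosome 7, 110850607 to 110863239, minus strand, 6 exon blocks), measured 20.1, 6.97 and 7.47 at ZT5. The value of 20.1 in ZT5 replicate 1 stood apart, since the other 17 livers ranged from 5.04 to 9.77, and the livers of the highest and lowest time points of Lyve1 overlapped.

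Fcgr2b encodes the inhibitory receptor for IgG, which in these cells takes up small immune complexes, and Clec4g encodes the C-type lectin LSECtin. Fcgr2b (chromosome 1, 170958617 to 170976547, minus strand, 10 exon blocks) was highest at ZT9, with 40.1, 53.0 and 50.8, and lowest at ZT21, with 29.4, 39.6 and 40.0. Clec4g (chromosome 8, 3707064 to 3720651, minus strand, 11 exon blocks) varied least with time, from 37.4, 42.6 and 40.0 at ZT9 to 24.9, 38.3 and 37.4 at ZT21, and these livers overlapped. Its widest spread lay within ZT17, at 41.6, 25.3 and 47.0.

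Kdr encodes VEGF receptor 2, the main signalling receptor for VEGF-A on endothelium, and Pecam1 encodes an adhesion molecule of endothelial junctions. Kdr (chromosome 5, 75932827 to 75978458, minus strand, 29 exon blocks) measured 46.1, 32.5 and 27.96 at ZT1, 57.6, 47.4 and 50.6 at ZT5, and 40.1, 52.8 and 46.6 at ZT9. In the dark its values were 40.9, 26.7 and 40.6 at ZT13, 32.3, 19.3 and 44.5 at ZT17, and 20.9, 34.3 and 35.1 at ZT21. All livers of ZT5 exceeded all livers of ZT21, although 1 liver of ZT17 reached 44.5. Pecam1 (chromosome 11, 106654217 to 106750628, minus strand, 17 exon blocks) was highest at ZT5, with 22.7, 15.998 and 15.1, and lowest at ZT21, with 9.34, 11.7 and 9.84.

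Oit3 and Bmp2 encode secreted proteins. Oit3 carries epidermal growth factor-like and zona pellucida domains, and Bmp2 is a ligand that, with Bmp6, drives hepcidin in hepatocytes. Oit3 (chromosome 10, 59422958 to 59441778, minus strand, 9 exon blocks) measured 22.2, 17.8 and 17.1 at ZT1, 30.4, 21.7 and 26.5 at ZT5, and 19.7, 27.2 and 22.6 at ZT9. It measured 23.2, 13.1 and 23.2 at ZT13, 14.6, 9.39 and 18.3 at ZT17, and 11.7, 18.3 and 18.9 at ZT21. The livers of ZT5 lay above those of ZT17, with means of 26.2 ± 4.33 and 14.1 ± 4.47. Bmp2 (chromosome 2, 133552159 to 133562885, plus strand, 3 exon blocks) measured 12.8, 11.2 and 9.51 at ZT1, 16.8, 13.9 and 17.5 at ZT5, and 12.3, 17.1 and 12.6 at ZT9. In the dark it measured 12.4, 7.90 and 16.3 at ZT13, 8.06, 4.89 and 9.87 at ZT17, and 9.08, 12.3 and 11.3 at ZT21. Bmp2 had the largest ratio between its highest and lowest time point means among the markers, 2.11, from 16.1 ± 1.91 at ZT5 to 7.61 ± 2.52 at ZT17.

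**Figure D1:**
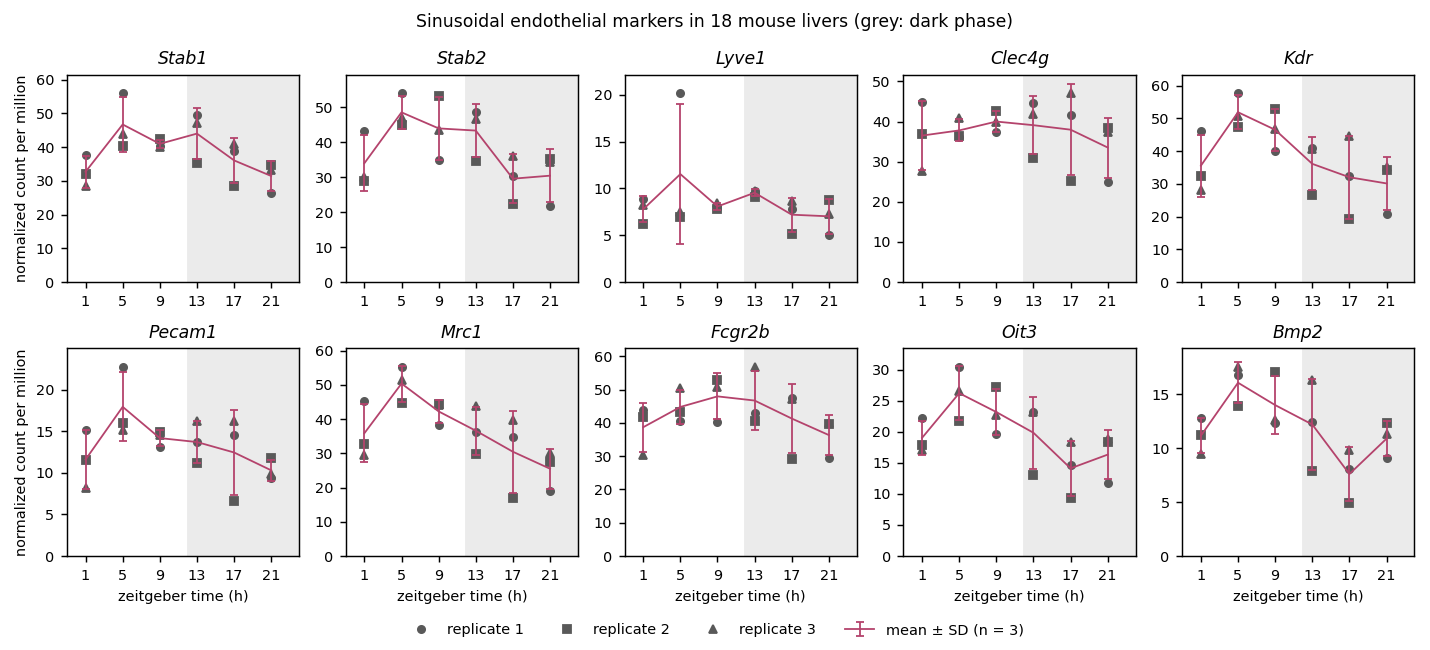
Level of each marker (normalized count per 1000000 reads, axes from 0) against zeitgeber time in hours, with 1 symbol for each of the 3 livers at a time point, the mean ± SD as a line with bars, and the dark phase in grey. The mean was highest at ZT5 for 8 markers and at ZT9 for Clec4g and Fcgr2b, and lowest at ZT17 or ZT21 for all 10.

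Across the 10 markers the time point means peaked at ZT5 in 8 and at ZT9 in 2, and were lowest at ZT21 in 7 and at ZT17 in 3 (Stab2, Oit3 and Bmp2). Divided by the lowest time point mean of the gene, the highest ran from 1.1931 for Clec4g to 2.11 for Bmp2, with a median of 1.68, against a median of 1.48 over all genes tested. The livers of the highest and lowest time points did not overlap for 8 markers, the exceptions being Lyve1 and Clec4g, and the same held for 70.8% of all genes tested. The spread between livers of 1 time point was wider for the markers than for most genes: the SD within time points, on the log2(value + 1) scale, ran from 0.22 for Stab1 to 0.39 for Lyve1 with a median of 0.33, and its median over genes with a mean of at least 1 was 0.18.

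Whether the markers followed a daily rhythm was asked with a cosine of 24 h fitted by limma to log2(value + 1) over all 14449 genes tested. This test called 6 of the 10 markers at an adjusted P-value below 0.05, and it called 35.3% of all genes tested. All 6 called markers peaked in the light, as did 2634 of the 5103 genes called. Mrc1 had the largest amplitude, 0.44 ± 0.10 on the log2 scale (SE), with a peak at ZT7.0 and an adjusted P-value of 0.0085. Bmp2 (amplitude 0.40 ± 0.10, peak at ZT6.1, adjusted P-value 0.014), Oit3 (0.40 ± 0.10, ZT6.5, 0.011) and Kdr (0.40 ± 0.11, ZT6.9, 0.019) peaked close to the middle of the light phase. Stab2 peaked at ZT7.9 (amplitude 0.37 ± 0.09, adjusted P-value 0.012) and Stab1 at ZT9.2 (0.26 ± 0.07, 0.026). The peaks of these 6 markers had SEs of 0.88 to 1.06 h, with livers taken every 4 h. Differences between peak times were not tested. An amplitude of 0.44 corresponds to a fitted peak 1.84 times the fitted trough, and the amplitude of Stab1 to 1.43 times.

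The other 4 markers did not pass. Their amplitudes were 0.29 ± 0.11 for Pecam1 (adjusted P-value 0.098), 0.20 ± 0.08 for Fcgr2b (0.11), 0.20 ± 0.12 for Lyve1 (0.34) and 0.12 ± 0.08 for Clec4g (0.51), and Pecam1 and Fcgr2b had unadjusted P-values of 0.044 and 0.049. Their fitted peaks lay between ZT7.8 and ZT9.7, with SEs of 1.40 to 2.79 h. Without the 2 livers lowest in these genes, ZT17 replicate 2 and ZT21 replicate 1, the cosine called 1 marker, Mrc1 (amplitude 0.29 ± 0.08, adjusted P-value 0.039). That fit called 4311 of the 14449 genes tested. The 2 livers were picked for low values in these same genes and both came from the dark, which favours fewer calls. Leaving out ZT21 replicate 1 alone ended the call of Stab1 (adjusted P-value 0.070), leaving out ZT17 replicate 3 added Pecam1 (0.044), and leaving out ZT5 replicate 3 kept the count at 6.

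The 3 algorithms named by the study, as rewritten here and with only 1 of the CircaN curves, called none of the 10 markers in these livers. JTK, a rank test against cosine orders, called 14.1% of genes tested, MC, which combines JTK with a Lomb-Scargle periodogram, called 18.3%, and CircaN restricted to its cosine curve called 11.2%. Mrc1 had the lowest q-value of the markers in JTK (0.084) and MC (0.072), followed by Bmp2 (0.13 and 0.11). With equal cosines taken as 1 group in its null, JTK called Mrc1 and Bmp2, and 22.4% of all genes. In the CircaN fit 9 markers, all but Clec4g, had a q-value below 0.05, as did 85.6% of all genes, and all 10 had an R-squared under the limit of 0.7, from 0.090 for Clec4g to 0.56 for Mrc1. The period of these fits ranged from 20.85 h for Bmp2 to 25.71 h for Clec4g.

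With no shape assumed, the limma test over the 6 time points called 1 marker, Bmp2 (adjusted P-value 0.047), against 26.3% of all genes tested. Stab1, Stab2, Mrc1 and Oit3 had unadjusted P-values under 0.05 in that test and adjusted P-values of 0.069 to 0.094. With 1 liver left out the count was 0 without ZT1 replicate 2 or 3, any liver of ZT5, ZT9 or ZT21, ZT13 replicate 1 or ZT17 replicate 1, and was 3 without ZT13 replicate 2 and 2 without ZT17 replicate 3.

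Between neighbouring time points none of the 10 markers changed past the threshold. The share of all genes called was 4.89% from ZT1 to ZT5, 1.54% from ZT5 to ZT9, 9.23% from ZT9 to ZT13, 1.20% from ZT13 to ZT17, 1.51% from ZT17 to ZT21 and 0.131% from ZT21 to ZT1. At an unadjusted P-value below 0.05 limma listed 3 markers from ZT1 to ZT5, namely Stab1 (log2 difference 0.50 ± 0.17, SE), Stab2 (0.52 ± 0.22) and Pecam1 (0.61 ± 0.27). It listed Stab2 (-0.55 ± 0.22) and Bmp2 (-0.61 ± 0.24) from ZT13 to ZT17, and 0 markers in the other 4 steps. The adjusted P-values of these listed changes ran from 0.11 to 0.26. The shares above are at the adjusted threshold and are no background for these unadjusted counts. The share of all genes at the unadjusted limit was not counted.

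The dark time points together were compared with the light time points together in the same fit. Mrc1, Kdr, Oit3 and Bmp2 were lower in the dark, 4 of the 10 markers, and 12.3% of all genes tested were called lower, while 0 markers and 11.9% of genes were called higher. Mrc1 had a median of 44.4 over 9 livers in the light (29.5 to 55.2) and of 30.1 in the dark (16.9 to 43.9), a log2 difference of -0.49 ± 0.15 (SE, adjusted P-value 0.026). Kdr had a median of 46.6 in the light (27.96 to 57.6) and 34.3 in the dark (19.3 to 44.5), a difference of -0.45 ± 0.16 (adjusted P-value 0.048). For all 4 genes the ranges of the light and dark livers overlapped. Over the alternative runs described at the end, Kdr kept this call in 8 and lost it in 19. Mrc1 kept its call in 22 of them, Oit3 in 17 and Bmp2 in 16.

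Oit3 had medians of 22.2 (17.1 to 30.4) and 18.3 (9.39 to 23.2) and a difference of -0.45 ± 0.14 (adjusted P-value 0.033). Bmp2 had medians of 12.8 (9.51 to 17.5) and 9.87 (4.89 to 16.3) and a difference of -0.43 ± 0.14 (adjusted P-value 0.034). The scavenger receptors Stab1 (-0.11 ± 0.10, adjusted P-value 0.43) and Stab2 (-0.30 ± 0.13, 0.11), whose means at ZT13 were still 44.0 ± 7.59 and 43.3 ± 7.55, did not pass. Nor did Pecam1 (-0.25 ± 0.15), Lyve1 (-0.14 ± 0.17), Fcgr2b (-0.09 ± 0.12) or Clec4g (-0.07 ± 0.13). The count fell to 0 without ZT1 replicate 1, without ZT13 replicate 2, without ZT21 replicate 1 and without the pair of livers named above, and to 1 or 2 without ZT1 replicate 2, ZT5 replicate 1, ZT5 replicate 3, ZT9 replicate 2 or ZT17 replicate 2. Calls over all genes, in either direction, also fell, from 3504 with all 18 livers to between 2896 and 3387 with 1 left out and 2644 without the pair.

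**Figure D2:**
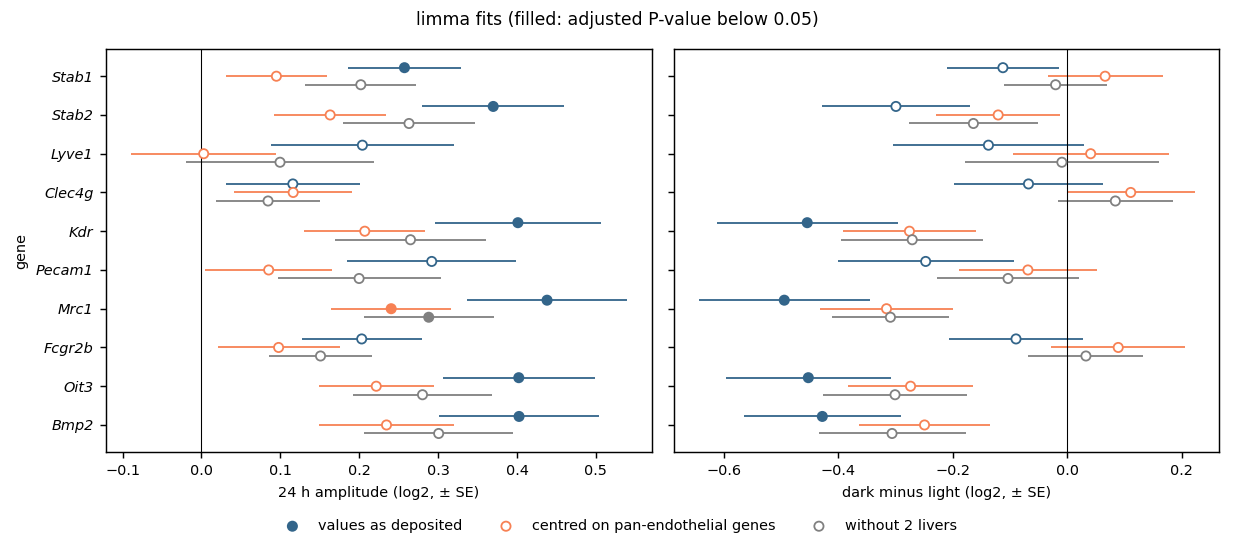
Amplitude of the 24 h cosine (left) and dark minus light difference (right), both on the log2(value + 1) scale with SEs as bars, for each marker in 3 fits: values as deposited, values centred on the mean log2 level of 20 pan-endothelial genes, and values without ZT17 replicate 2 and ZT21 replicate 1. Filled points passed an adjusted P-value of 0.05: 6 and 4 markers with the values as deposited, and Mrc1 in the amplitude of each of the other fits.

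The markers varied together from liver to liver. ZT17 replicate 2 was the lowest of all 18 livers for 6 markers (Kdr, Pecam1, Mrc1, Fcgr2b, Oit3 and Bmp2), and ZT21 replicate 1 was the lowest for the other 4 (Stab1, Stab2, Lyve1 and Clec4g). ZT5 replicate 1 was the highest liver for 7 markers. The summed level of the 10 markers was 167 in ZT17 replicate 2 and 177 in ZT21 replicate 1, against 270 and 308 in the other livers of ZT17 and 258 to 261 in those of ZT21, and it reached 389 in ZT5 replicate 1. These 3 livers had 12442234, 13251350 and 11602598 estimated reads, inside the range of the others. Their deposited values summed over all genes were at the extremes. ZT17 replicate 2 (1077230) and ZT21 replicate 1 (1070200) had the 2 highest sums of the 18 livers, and ZT5 replicate 1 (941088) had the lowest.

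**Figure D3:**
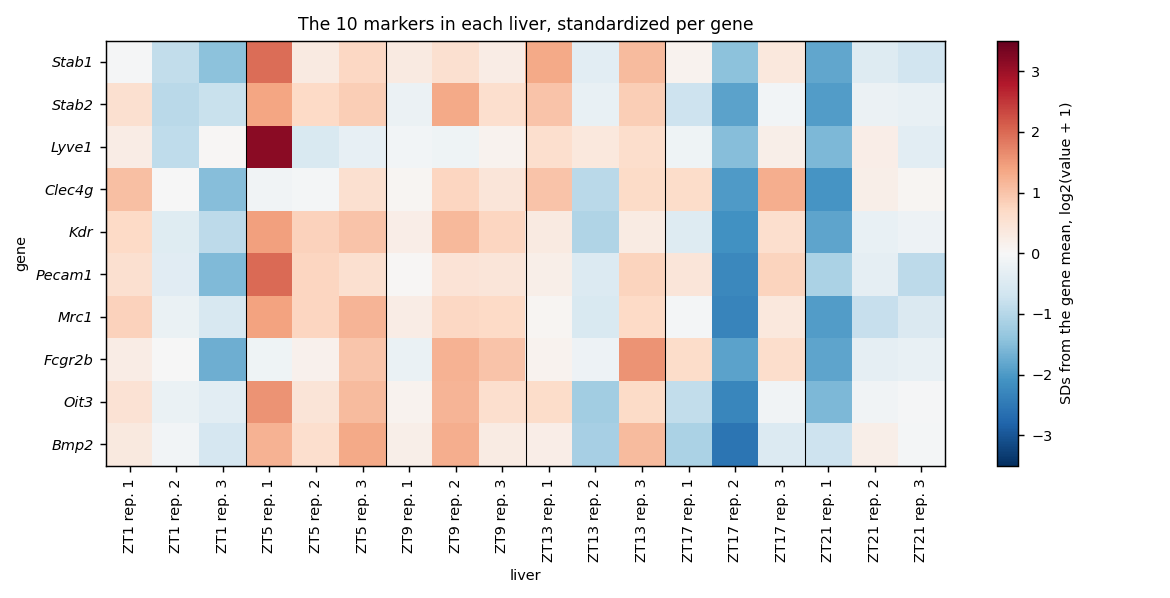
Each marker (rows) in each of the 18 livers (columns, grouped by zeitgeber time), as SDs from the mean of that gene on the log2(value + 1) scale, with red above and blue below the mean. ZT17 replicate 2 and ZT21 replicate 1 were below the mean in all 10 rows, and Lyve1 stood out in ZT5 replicate 1.

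Each marker was correlated over the 18 livers with the mean standardized log2 level of the other 9, in a two-sided permutation test adjusted over the 10 markers. All 10 correlations passed, from Pearson's r of 0.64 for Lyve1 (Spearman's rho 0.49, adjusted P-values 0.0039 and 0.039) to 0.96 for Kdr (rho 0.90), and the others lay between 0.78 for Clec4g (rho 0.60) and 0.95 for Mrc1 (rho 0.88). For deviations from the time point means, where shared timing is removed, r ran from 0.54 for Lyve1 to 0.98 for Kdr, and all 10 passed an exact permutation test within time points (adjusted P-values up to 0.012). Without the 2 livers farthest from the median, which were again ZT17 replicate 2 and ZT21 replicate 1, r was 0.42 for Lyve1 (adjusted P-value 0.10), so its relation rested on those livers, and 0.53 to 0.91 for the other 9, which still passed.

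Among the 45 pairs of markers r had a median of 0.76, and 43 pairs passed a two-sided permutation test of r adjusted over the 45, as did 38 pairs for rho. How often pairs of other genes pass was not counted. Kdr and Mrc1 were the closest pair (r = 0.95, rho = 0.93), followed by Kdr and Oit3 (r = 0.95, rho = 0.92) and Oit3 and Bmp2 (r = 0.95, rho = 0.96). Lyve1 with Clec4g (r = 0.39, adjusted P-value 0.12) and Lyve1 with Fcgr2b (r = 0.34, 0.17) did not pass. Within time points 42 pairs passed, the median r was 0.85, and Lyve1 with Bmp2 was the third pair that missed (r = 0.40, adjusted P-value 0.053).

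Marker lists of other cells were read in the same livers. The mean standardized level of the 10 markers had r = 0.97 (rho 0.96) with that of 20 pan-endothelial genes, 0.96 (rho 0.92) with 15 other sinusoidal endothelial genes, 0.91 (rho 0.87) with 9 genes of larger vessels and 0.95 (rho 0.92) with 14 genes of Kupffer cells, the resident macrophages of the sinusoids. These 4 relations passed a two-sided permutation test adjusted over 12 measures (P-values of 3.0e-05) and, within time points, were 0.96, 0.95, 0.90 and 0.96. A further run left out the 2 livers farthest from the median of each list, which need not be the pair named above. It gave r of 0.96, 0.92, 0.88 and 0.90. The stellate cell list (r = 0.67, rho 0.74, adjusted P-value 0.0052) and the lymphocyte list (r = 0.67, rho 0.55, 0.0052) passed with lower values, and Spearman's rho passed for these same 6 lists. Within time points the stellate list still passed (r = 0.61, adjusted P-value 0.0014) and the lymphocyte list did not (r = 0.58, 0.10).

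The lists of neutrophils (r = 0.40, rho 0.41, adjusted P-value 0.16), hepatocytes (-0.37, -0.25, 0.18), cholangiocytes (-0.31, -0.34, 0.25) and erythroid cells (-0.01, -0.11, 0.98) did not pass, although the neutrophil list did within time points (r = 0.45, adjusted P-value 0.036). The column sum of the deposited values, which is not fixed by the normalization, ran from 941088 to 1077230. It had r = -0.82 with the markers (rho -0.72, adjusted P-values 4.8e-05 and 0.0025), and r = -0.68 without the 2 livers farthest from its own median. The summed Kupffer markers moved with the markers, from 204 in ZT17 replicate 2 and 208 in ZT21 replicate 1 to 487 in ZT5 replicate 1, as did the summed pan-endothelial genes, from 169 and 163 to 366. The part of the column sum and of these other cells in the daily pattern of the markers was not tested. Rescaling each liver to an equal sum gave the same count of 6 called by the cosine. Since livers high in the markers had low sums, rescaling raised the amplitude of every marker (Mrc1 from 0.44 to 0.49, Stab1 from 0.26 to 0.29). The unchanged count is therefore no test of the part of the column sum.

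**Figure D4:**
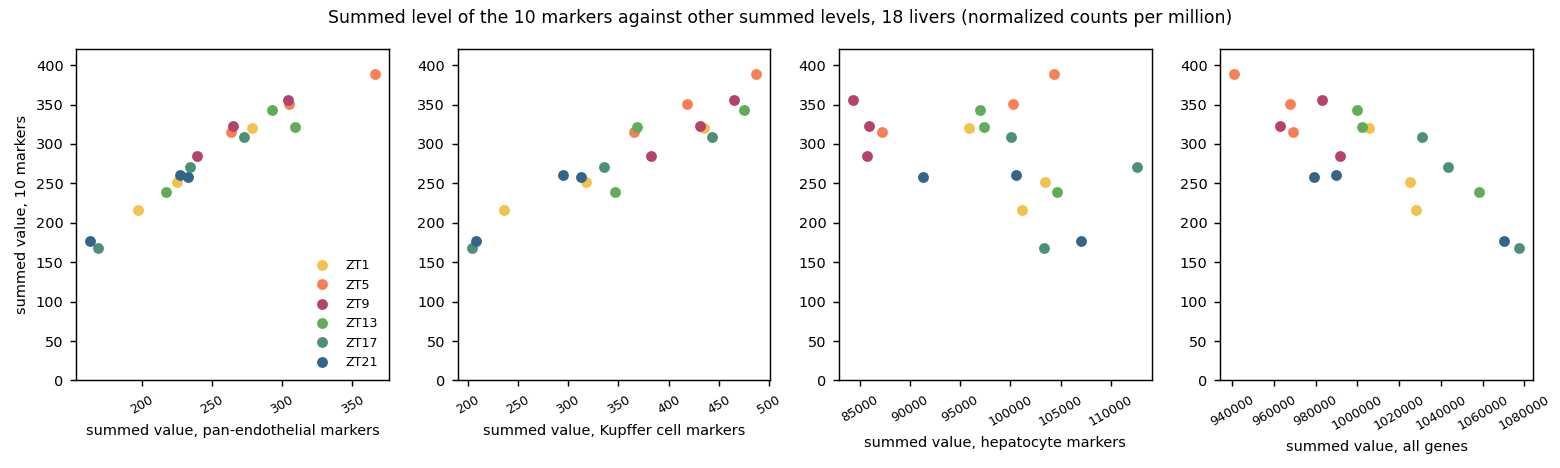
Summed level of the 10 markers (vertical axis) against the summed level of pan-endothelial genes, Kupffer cell genes, hepatocyte genes and all genes, in normalized counts per 1000000 reads, with 1 point for each of 18 livers coloured by zeitgeber time. The points rise together in the first 2 panels and scatter in the hepatocyte panel, and the sum over all genes was lowest where the markers were highest.

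When every gene was expressed relative to the 20 pan-endothelial genes of the same liver, the cosine called 1 marker, Mrc1 (amplitude 0.24 ± 0.08, peak at ZT6.3, adjusted P-value 0.043). Oit3 came next (0.22 ± 0.07, adjusted P-value 0.052), then Bmp2 (0.23 ± 0.09, 0.078) and Kdr (0.21 ± 0.08, 0.085). The dark minus light difference then called 0 markers, with Mrc1 at -0.32 ± 0.12 (adjusted P-value 0.069). Of all 14449 genes tested it called 1956 on this scale, in either direction, and 3504 with the values as deposited. This scale asks whether a gene moved differently, in size or in timing, from endothelial genes as a whole. On it 5418 of all genes passed the cosine, and these can include genes that moved less.

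The daily pattern was read in the same lists, and their counts stand beside the 35.3% of all genes that the cosine called. Of the 15 other sinusoidal endothelial genes 7 passed the cosine, all with peaks in the light, among them Ctsl, a lysosomal protease (amplitude 0.28 ± 0.05, peak at ZT4.0, adjusted P-value 0.0015), Flt4, VEGF receptor 3 (0.47 ± 0.10, ZT8.0, 0.0062), and F8, clotting factor VIII (0.46 ± 0.10, ZT8.9, 0.0079). Rspo3, also among the 7, peaked close to lights on (0.22, ZT0.37, 0.034). Dark against light called 1 of these 15 genes lower and 1 higher, beside 12.3% and 11.9% of all genes. Of the 20 pan-endothelial genes 5 passed, with Robo4, Egfl7 and Eng at adjusted P-values of 0.031, 0.032 and 0.037, and of 9 vessel genes 3 passed, with Ephb4 and Selp in the light and Vcam1 at ZT12.4. Of the 14 Kupffer genes 5 passed, led by Cd5l (amplitude 0.59 ± 0.12, ZT8.2, adjusted P-value 0.0025), Marco (0.75 ± 0.16, ZT8.5, 0.0052) and Timd4 (0.38 ± 0.09, ZT8.1, 0.010). The median amplitude was 0.33 for the 10 markers, 0.24 for the other sinusoidal genes, 0.23 for the pan-endothelial genes, 0.30 for the Kupffer genes and 0.16 for all genes tested. It was 0.29 for the erythroid genes, 0.26 for cholangiocyte, 0.21 for neutrophil, 0.19 for vessel and for lymphocyte, 0.17 for stellate and 0.16 for hepatocyte genes.

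The remaining lists gave fewer calls in the light. Col3a1 was the 1 stellate gene of 14 that passed (amplitude 0.32 ± 0.09, peak at ZT7.3, adjusted P-value 0.026), ahead of Reln (0.053) and Pdgfrb (0.12). The hepatocyte genes Serpina1c, Hnf4a and Ttr (3 of 9) and the cholangiocyte genes Sox9, Krt19 and Epcam (3 of 5) passed with peaks in the dark, between ZT12.6 and ZT21.7. Of 7 lymphocyte and 5 erythroid genes 0 passed, among them Cd79a (adjusted P-value 0.087), Cd79b (0.095), Alas2 (0.30), Hbb-bs (0.37) and Hba-a2 (0.42), and of 4 neutrophil genes Ly6g passed with a peak at ZT15.7, while Csf3r (0.055) and S100a9 (0.12) did not.

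The 10 genes outside the markers with the pattern most like theirs, by r over 18 livers with the mean standardized marker level and a mean value of at least 1, were Aqp1 (0.97), Ptprb (0.96), Flt4 (0.95), Cd300lg (0.95), Sirpa (0.95), Cdh5 (0.95), Sdc3 (0.94), Eng (0.94), Dnase1l3 (0.94) and Cyp4b1 (0.94). Aqp1 is a water channel, Ptprb a phosphatase of endothelial receptors, Cdh5 the cadherin of endothelial junctions, Eng a coreceptor for BMPs, and Dnase1l3 a secreted nuclease. An r of at least 0.8 was reached by 139 of the 12470 genes compared (1.11%), by 13 of the 14 Kupffer genes, 9 of the 20 pan-endothelial genes, 5 of the 15 other sinusoidal genes and 0 of 9 hepatocyte genes. The median r of the 12470 genes was -0.0019.

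VEGF and BMP genes, which include the markers Kdr and Bmp2, were read from chosen lists, again beside 35.3% of all genes called. Of 9 VEGF ligands and receptors, Kdr and Flt4 passed the cosine, Figf (VEGF-D) had an adjusted P-value of 0.084, and the ligand Vegfa, which hepatocytes make, averaged 144 with an amplitude of 0.15 (0.092). Flt1, the decoy receptor for VEGF-A, had an adjusted P-value of 0.18, and the coreceptors Nrp1 and Nrp2 had 0.16 and 0.14. Of 21 genes from BMP ligands to hepcidin 5 passed: the ligands Bmp2 and Bmp6 (amplitude 0.37, peak at ZT6.5, adjusted P-value 0.032), the receptor Bmpr2 (0.18, ZT5.4, 0.015), the shared transducer Smad4 (0.22, ZT5.2, 0.0051) and, in the dark, Hfe2, the BMP coreceptor hemojuvelin (0.30, ZT19.5, 0.0020). Hepcidin itself, Hamp, ranged from 189 to 883 over the livers with an adjusted P-value of 0.37, and the BMP target genes Id1 (0.31), Smad7 (0.29) and Smad6 (0.053) did not pass.

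RefSeq promoter windows of 300 bases on GRCm38, from 250 bases before the RefSeq start of the gene to 50 after it, were matched for 6 of the markers (Stab1, Stab2, Kdr, Mrc1, Fcgr2b and Clec4g). The RefSeq start lies downstream of the outermost GENCODE start used for the coordinates above by 476 bases for Fcgr2b, 83 for Stab2, 22 for Mrc1 and 3 for Kdr, so the window of Fcgr2b is wholly inside the GENCODE gene. The windows of Stab2, Kdr and Mrc1 are shown because these are called markers with different motif content, and capitals mark the letters of a motif searched. They lie at chr10:87007893-87008192 on the minus strand, chr5:75978406-75978705 on the minus strand and chr2:14229164-14229463 on the plus strand, each written 5′ to 3′.
Stab2: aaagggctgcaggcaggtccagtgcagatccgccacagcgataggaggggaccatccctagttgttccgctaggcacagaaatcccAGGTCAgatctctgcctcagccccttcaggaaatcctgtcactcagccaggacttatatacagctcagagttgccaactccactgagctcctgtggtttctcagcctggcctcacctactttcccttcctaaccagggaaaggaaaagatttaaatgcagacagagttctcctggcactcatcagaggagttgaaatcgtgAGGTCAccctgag
Kdr: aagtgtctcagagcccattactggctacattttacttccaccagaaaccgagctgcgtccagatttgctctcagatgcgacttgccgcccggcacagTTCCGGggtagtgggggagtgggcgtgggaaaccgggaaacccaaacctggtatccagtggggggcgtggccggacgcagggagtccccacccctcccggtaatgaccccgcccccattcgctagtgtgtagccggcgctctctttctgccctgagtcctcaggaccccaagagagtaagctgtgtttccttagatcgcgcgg
Mrc1: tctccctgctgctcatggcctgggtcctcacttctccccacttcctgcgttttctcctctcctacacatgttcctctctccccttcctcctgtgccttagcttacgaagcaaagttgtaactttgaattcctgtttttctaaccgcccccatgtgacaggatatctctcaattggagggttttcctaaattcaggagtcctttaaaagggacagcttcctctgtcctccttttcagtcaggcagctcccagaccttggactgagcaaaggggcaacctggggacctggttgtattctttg
Motifs were searched as exact letters on both strands. AGGTCA, the core recognised by REV-ERB and ROR clock receptors, was found in Stab2, in 2 copies, and in Fcgr2b, which is 2 of the 6 windows against 16.3% of 32851 promoter windows. CCGGAA, a core of ETS factors, was found in Kdr on the reverse strand as TTCCGG, against 14.9% of all windows. The E-box CACGTG (7.15% of all windows), the D-box TTATGTAA (0.938%) and the GATA motif AGATAA (11.2%) were in 0 of the 6 windows, which says only that these letters were absent there. None of these motifs overlaps another in the printed windows.

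Fcgr2b, Pecam1 and Stab1 share transcript sequence with other genes, and Stab1, Stab2, Clec4g and Fcgr2b overlap genes on the opposite strand. Part of their reads may therefore be uncertain. Exons of Stab1 overlap Nt5dc2 on the opposite strand over 112 bases, and those of Stab2, Clec4g and Fcgr2b overlap antisense genes over 141, 146 and 155 bases. Of all 50-nt windows of the transcripts 4.38% were shared with another gene for Fcgr2b, mainly Fcgr3, 0.998% for Pecam1 and 0.0460% for Stab1, and 0 for the other 7 markers.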

How the data were processed

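Whole livers of 18 mice, 3 at each of 6 zeitgeber times, were measured by RNA sequencing. The authors trimmed adapters from 50-nt single reads with Cutadapt, estimated counts per gene with RSEM 1.2.20 on the GRCm38 transcriptome after base calling with CASAVA 1.8.2, and normalized them with limma. The deposited signal is an estimated count plus 0.5 per 1000000 reads of an effective library size, so depth was recovered from each column's lowest value. From 39.1% to 47.9% of values came out as whole reads within 0.004, so count models were not used. Here, log2(value + 1) of 14449 genes (2 that sat at the floor in all livers were left out) was fitted with limma 3.58.1 in R 4.3.3, with Benjamini-Hochberg adjustment over all genes, and JTK, MC and the CircaN cosine curve, each on periods of 20 to 28 h, were rewritten in Python. The other CircaN curves were not run, since their constants are not given in the sources used here. Fits were tested on simulated data. Correlations used 100000 resamples (the smallest P-value they can give is 1e-05). Coordinates and exons came from GENCODE M21. Replicates were numbered in the order of deposit and carry no pairing. The 3 livers of a time point were chosen by the study for their RNA quality, and no batch is labelled. Named genes were all 10 markers, the 3 smallest P-values of each other list and 10 genes of like pattern. Rspo3 and further genes of the VEGF and BMP lists were named after their values were seen. The values of 1 gene that this rule names are not reported here. The markers and lists were chosen with earlier results of these data known. Sele, Tf, Cd3e, Cd3g, Cd3d, Nkg7, Retnlg, Cftr and Pgf were not analysed here.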

Additional observations from a re-analysis of the deposited data

How the results depend on the processing

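The 6 calls of the 24 h cosine stayed at 6 under another pseudocount, a filter on low values, rescaling, quantile normalization, array weights and a mean-variance trend, ranged from 5 to 7 with 1 liver left out, and were 1 with values centred on pan-endothelial genes and 1 without the 2 lowest livers, an alternative chosen after seeing the data. The test over 6 time points called 1 marker, and 0 with no pseudocount, a pseudocount of 0.1, quantile normalization, centring, array weights or without the 2 lowest livers, 2 with the trend, and 0 to 3 with 1 liver left out. Dark against light called 4, and 0 when centred or without the 2 lowest livers, 1 with array weights and 0 to 4 with 1 liver left out. JTK and MC each called 0, and 1 when rescaled (Mrc1) or centred (Stab1), JTK 2 with equal cosines taken as 1 group, and both 0 to 1 with 1 liver left out (1 without ZT1 replicate 3 or ZT17 replicate 3, and for MC also without ZT13 replicate 3). CircaN called 0, and 9 with no limit on R-squared. The 6 steps stayed at 0 calls, and all 10 correlations of a marker with the others passed in every alternative run except, for Lyve1, leaving out the 2 farthest livers. The dark minus light difference of markers that did not pass turned positive when centred for, Stab1 (0.0664), Lyve1 (0.0411), Clec4g (0.111) and Fcgr2b (0.0893), and without the 2 lowest livers, Clec4g (0.0842) and Fcgr2b (0.0328). With 1 liver left out it ranged for Lyve1 from -0.220 to 0.0141 (positive without ZT5 replicate 1) and for Clec4g from -0.127 to 0.0193 (positive without ZT17 replicate 2). For these changes the cause was not tested. The fewest reads behind a marker value were 56.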
